A study of Mus musculus with 8 samples.

Results

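The transcripts described here belong to 9 genes that restrain or modulate the cell cycle, the Cdk inhibitor genes Cdkn1a, Cdkn1b, Cdkn1c, Cdkn2a, Cdkn2c and Cdkn2d and the stress-inducible genes Gadd45a, Gadd45b and Gadd45g. They were chosen by name, with earlier results of these data known, and all 9 were found among 29924 gene names on a one-color microarray. The arrays held RNA of CD4 T cells from peripheral lymph nodes (pLN) of B6.Cg-Foxp3<tm1Mal> mice, which carry EGFP in the Foxp3 locus, of mixed sex and 8 to 14 weeks of age. All mice were immunized s.c. with KLH in alum. Cells of 8 to 15 mice were pooled for a sort and 25 ng of RNA were labelled. Sorting yielded naive CD4 T cells (GFP- PD1- GL7-), TFH cells (GFP- PD1hi GL7+), Treg cells (GFP+ PD1- GL7-) and TFR cells (GFP+ PD1hi, GL7+ or GL7-) at d12 and d25 p.i. Each population was measured on 1 array per day, which gives 8 arrays in all and 2 per cell type. Since the 2 arrays of a cell type came from different days and pools, their spread contains both noise and any change with time. The arrays thus set 2 follicular populations, TFH without and TFR with Foxp3, against naive and Treg cells, and ask how transcripts of cell cycle brakes differ between them.

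Progression from G1 into S phase is driven by D-type cyclins with Cdk4 or Cdk6 and by cyclin E with Cdk2, which together phosphorylate the retinoblastoma protein and release E2F factors. The INK4 proteins, encoded by Cdkn2a, Cdkn2b, Cdkn2c and Cdkn2d (p16, p15, p18 and p19), bind Cdk4 and Cdk6, whereas the Cip/Kip proteins p21, p27 and p57 (Cdkn1a, Cdkn1b and Cdkn1c) bind cyclin-Cdk complexes more broadly. Cdkn2a also encodes Arf in another reading frame, which stabilizes p53 by binding Mdm2. The Gadd45 proteins are small stress sensors that bind Cdk1, PCNA and the kinase Map3k4, through which they activate p38 and JNK. In lymphocytes, p27 is known to hold resting T cells out of the cycle, p18 to limit antigen receptor driven division, and Gadd45b and Gadd45g to promote p38 activity and IFN-gamma production in T helper cells.

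Levels are given in relative units (RU) of array fluorescence after quantile normalization, with the 75th percentile of each array at 1500 RU and a floor of 20 RU, and a level can be compared between arrays but not between genes. The sorted populations carried the markers of their labels. Foxp3 lay between 37266 and 49260 RU in Treg and TFR cells and between 66 and 358 RU in the others, and Cxcr5 between 35332 and 237475 RU in TFH and TFR cells and between 1399 and 4385 RU in the others. The summed level of 12 proliferation markers was 34354 and 35589 RU in naive CD4 T cells, 43077 and 47477 RU in Treg cells, 55520 and 66530 RU in TFH cells and 110062 and 135266 RU in TFR cells. Pcna made up most of the naive sums, at 21359 and 24262 RU, so the sums mainly follow bright markers. The median log2 level of the 12 markers at d12 and d25 was 9.52 and 9.05 in naive and 10.57 and 10.5 in Treg cells. It was 12.05 and 11.35 in TFH and 12.68 and 12.51 in TFR cells. One library stood apart, as the summed level of 10 B cell markers was 18578 RU in TFH cells of d25 and between 6291 and 10491 RU on the other arrays. Pax5, a defining factor of B cells, was at the floor on all 8 arrays. The part of this RNA in the results was not tested, and members whose TFH levels differed between the days are given for each day.

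The promoters of the 4 genes that passed the test in both follicular populations are shown so that their differing make-up can be read directly. The sequences are the 250 bases before the annotated start from RefSeq (assembly GRCm38.p6, 5' to 3' on the strand of the gene), and such a window was found for 8 of the 9 genes. Capitals mark matches on either strand to 10 motifs: the GC box GGGCGG, the CCAAT box CCAAT, the E-box CACGTG, the TATA motif TATAAA, the AP-1 motif TGANTCA, the STAT motif TTCNNNGAA, the forkhead motif TGTTTAC, the E2F motif TTTNNCGC, the p53 half-site and the NF-kB motif. Cdkn1a has 2 annotated starts and both windows are given, while of the 2 windows of Cdkn2c the upstream one is given.
Cdkn1a, upstream start (chr17:29090729-29090978, plus strand): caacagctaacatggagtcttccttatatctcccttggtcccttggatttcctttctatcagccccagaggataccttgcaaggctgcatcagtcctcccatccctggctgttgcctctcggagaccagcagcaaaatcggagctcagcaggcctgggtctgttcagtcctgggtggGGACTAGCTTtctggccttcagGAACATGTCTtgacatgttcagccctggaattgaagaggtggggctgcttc
Cdkn1a, downstream start (chr17:29093519-29093768, plus strand): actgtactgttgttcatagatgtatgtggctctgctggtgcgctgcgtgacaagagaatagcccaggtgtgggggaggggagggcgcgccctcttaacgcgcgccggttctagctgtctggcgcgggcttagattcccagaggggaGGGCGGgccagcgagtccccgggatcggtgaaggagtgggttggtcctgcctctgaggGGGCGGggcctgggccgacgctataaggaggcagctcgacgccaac
Cdkn2c (chr4:109666757-109667006, minus strand): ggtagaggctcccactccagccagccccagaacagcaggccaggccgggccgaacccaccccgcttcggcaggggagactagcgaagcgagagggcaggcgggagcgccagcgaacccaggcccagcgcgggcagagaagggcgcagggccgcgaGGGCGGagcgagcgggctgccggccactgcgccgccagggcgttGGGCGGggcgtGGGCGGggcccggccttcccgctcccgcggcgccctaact
Cdkn2d (chr9:21291210-21291459, minus strand): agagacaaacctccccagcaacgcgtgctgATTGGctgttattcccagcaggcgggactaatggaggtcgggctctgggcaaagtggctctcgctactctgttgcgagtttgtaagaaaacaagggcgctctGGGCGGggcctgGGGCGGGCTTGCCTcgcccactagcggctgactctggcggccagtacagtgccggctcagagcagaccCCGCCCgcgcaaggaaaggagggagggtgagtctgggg
Gadd45b (chr10:80929841-80930090, plus strand): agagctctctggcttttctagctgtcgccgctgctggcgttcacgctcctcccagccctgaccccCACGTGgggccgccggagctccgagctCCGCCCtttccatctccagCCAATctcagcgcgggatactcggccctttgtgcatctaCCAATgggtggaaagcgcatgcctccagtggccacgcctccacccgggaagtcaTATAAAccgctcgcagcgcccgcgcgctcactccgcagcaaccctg
The upstream window of Cdkn1a held 2 p53 half-sites, which begin 73 and 51 bases before the start, and its downstream window held 2 GC boxes and no other of the motifs. The upstream Cdkn2c window contained 3 GC boxes alone, and the other Cdkn2c window held none of the 10 motifs. In Cdkn2d, 3 GC boxes, a CCAAT box 220 bases before the start and a p53 half-site were found, and this half-site shares bases with a GC box. Gadd45b was the most varied, with an E-box, a GC box, 2 CCAAT boxes and a TATA motif 46 bases before the start. Over 32851 windows of the same length before annotated mouse starts from RefSeq, 32.7% held a GC box, 33.8% a CCAAT box, 6.02% an E-box, 12.4% a TATA motif and 7.13% a p53 half-site. The counts below are per gene, with a match in any of its windows (11 windows for 8 genes), and these shares are per window. Among all 8 genes with a window, 7 held a GC box, 5 a CCAAT box, 3 a p53 half-site (Cdkn1a, Cdkn2d and Gadd45a), 2 an E-box with a TATA motif (Gadd45b and Gadd45g) and 1 the E2F motif (Cdkn2a), which 4.28% of all windows held. None of the 8 held the AP-1, STAT, forkhead or NF-kB motif, against 6.75%, 7.02%, 3.17% and 7.25% of all windows. A match is a description of letters and does not show binding of a factor.

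The inhibitors did not follow a common direction in follicular cells. Comparing TFH with naive CD4 T cells, Cdkn1a, Cdkn2c, Gadd45a and Gadd45b were higher and Cdkn2d was lower, so that 5 of the 9 genes passed the test (limma, Benjamini-Hochberg adjusted p below 0.05 over 15763 genes). TFH and naive cells differed widely, and 46.6% of all genes tested passed, 20.9% as higher and 25.7% as lower in TFH cells. The median difference of the 9 genes was 1.34 on the log2 scale against -0.07 over all genes tested. Between TFR and Treg cells, Cdkn1a, Cdkn2a, Cdkn2c and Gadd45b were higher and Cdkn2d was lower in TFR cells, again 5 of 9, with 39.7% of all genes passing, 18.7% as higher and 21% as lower, and a median of 0.87 against -0.08 over all genes. The shares of the 9 genes called are thus near the background, and it is the size and direction of single genes that the following values describe. All 9 genes entered the test, although Cdkn1a was well above background on the 4 arrays of TFH and TFR cells alone and Cdkn2a on 7 of 8 arrays, and 7 genes were well above background on all arrays.

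**Figure D1:**
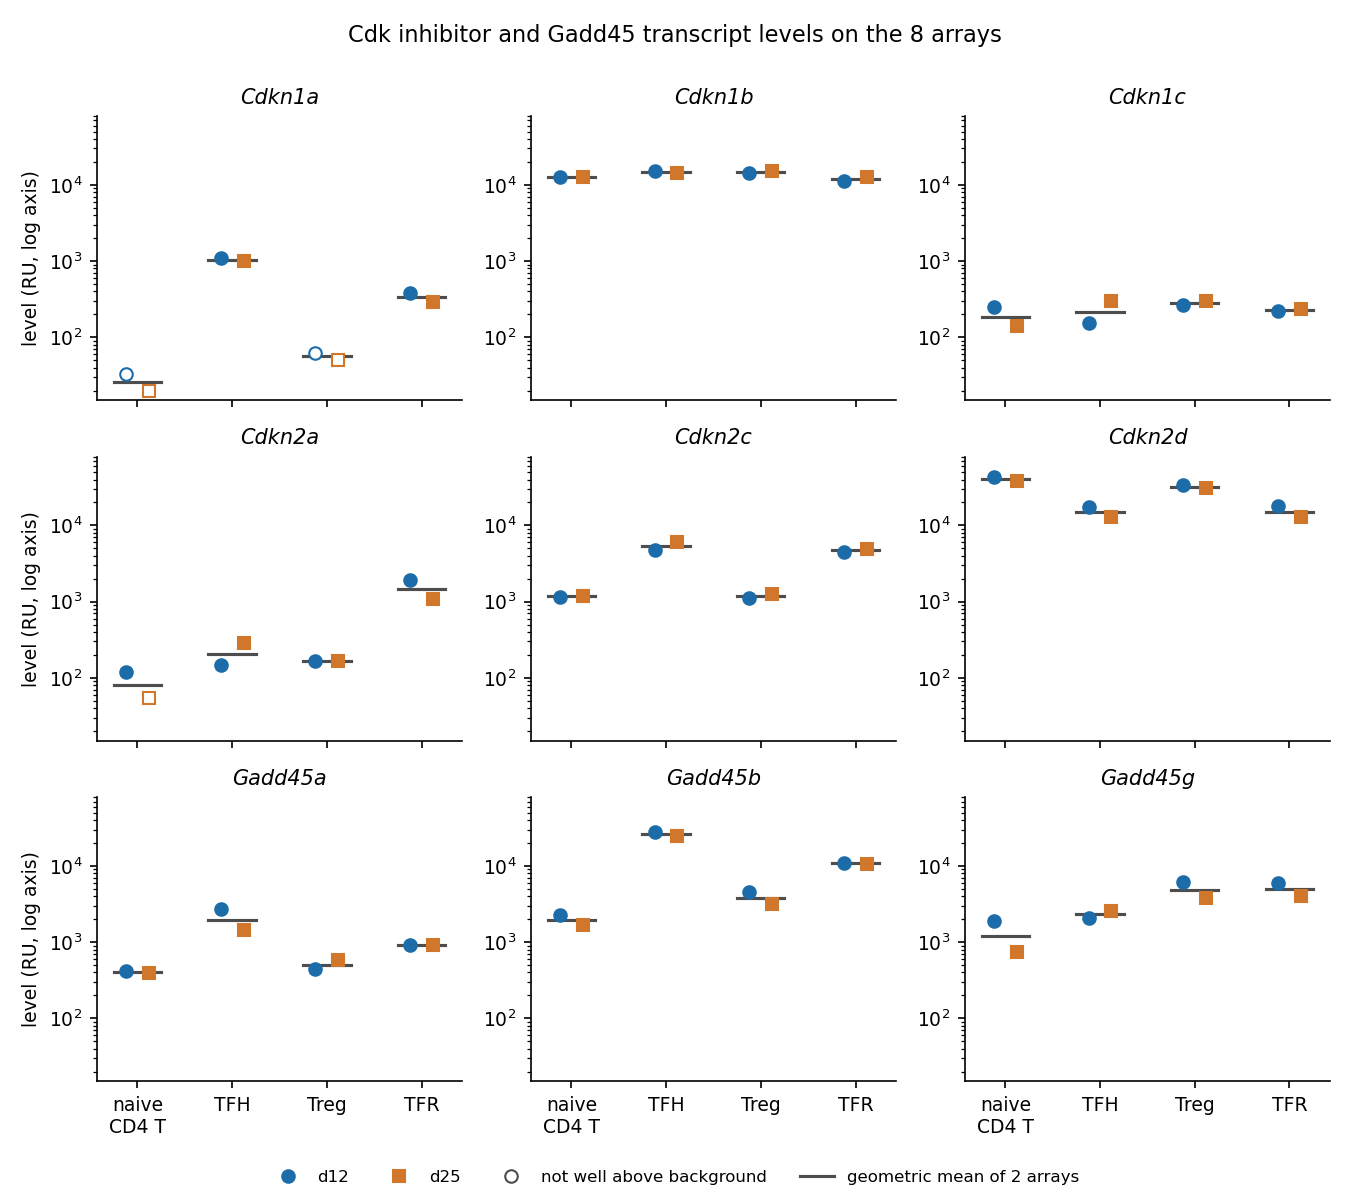
Levels of the 9 transcripts on each of the 8 arrays (RU, log axis), with circles for d12, squares for d25, open symbols where the probe was not well above background, and a line at the geometric mean of the 2 arrays of a cell type. Cdkn1a reached 1082 and 1003 RU in TFH cells and has open symbols in naive CD4 T and Treg cells, Cdkn2d ran the other way, and Cdkn1b remained between 11199 and 15391 RU throughout.

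Cdkn1a, the p53-inducible inhibitor p21, showed the widest span. Its probe (chr17:29237377-29237436, plus strand, NCBI37) measured 1082 RU at d12 and 1003 RU at d25 in TFH cells, 384 and 289 RU in TFR cells, 62 and 50 RU in Treg cells, against 33 and 20 RU in naive CD4 T cells. The naive and Treg levels were not well above background, so that 4 arrays with signal stood against 4 without, and TFH and TFR levels did not overlap. Against the lowest signal that counted as above background on the naive arrays, Cdkn1a was at least 17.8-fold higher in TFH cells (adjusted p = 0.000129). It was 5.97-fold higher in TFR than in Treg cells (log2 difference 2.58, interval from 2.15 to 3, adjusted p = 0.00106). These folds set the mean of the bright group against the higher of 2 levels on each array. The levels are the probe's own signal and the dimmest probe above background. On the Treg arrays the probe's own signal was the higher, so 5.97 is the measured fold and not a lower bound. Both folds hold for the background correction used. With normexp correction the log2 differences were smaller, at 2.64 for TFH against naive and 1.22 for TFR against Treg cells, and lie under these folds. Between the follicular populations, where both levels were measured, TFR cells were lower by a log2 difference of -1.64 ± 0.16 (SE, adjusted p = 0.00443), a 3.13-fold lower level. Without the TFR array of d12 this difference was -1.66 with an adjusted p of 0.0536, and without that of d25 it was -1.63 with an adjusted p of 0.05, just short of the threshold. Treg and naive cells cannot be ranked, since both were below background. A probe at the upstream transcript measured 89 RU in TFR cells of d12 and 20 to 46 RU on the other arrays, and a further probe was at the floor on all of them. Averaging the 3 probes of the gene therefore gave a TFR to TFH difference of -0.17 (adjusted p = 0.613) and a TFH to naive difference of 1.77, and the values given above describe the transcript end that the brightest probe reads.

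Cdkn1b and Cdkn1c, the other Cip/Kip genes, did not pass the test in any comparison of the main analysis. Cdkn1b, encoding p27, measured 12786 and 12678 RU in naive CD4 T cells, 11199 and 12836 RU in TFR cells, 14119 and 15391 RU in Treg cells, against 15285 and 14405 RU in TFH cells (chr6:134875424-134875483, plus strand, NCBI37). The TFR levels enclose the naive ones, and the Treg levels enclose those of TFH cells. The TFH to naive difference was 0.22 ± 0.10 on the log2 scale with a 95% interval from -0.05 to 0.49, and the TFR to Treg difference was -0.30 ± 0.10 with an interval from -0.57 to -0.03 (adjusted p = 0.0783). The latter passed with slide as a random block (-0.30, adjusted p = 0.0437) and with a variance trend in limma (adjusted p = 0.0368), where Cdkn1b also passed for TFR to TFH (-0.31, adjusted p = 0.0474) and for the difference of the follicular changes (-0.52, adjusted p = 0.0487). The highest and the lowest group mean were 14839 RU in TFH and 11990 RU in TFR cells. The amount of p27 protein is known to depend largely on its degradation, which arrays do not read. Cdkn1c, encoding p57, was dim, with 250 and 140 RU in naive, 152 and 298 RU in TFH, 268 and 301 RU in Treg, and 218 and 232 RU in TFR cells (chr7:150644753-150644812, minus strand, NCBI37). Its naive and TFH ranges overlapped, and the TFH to naive difference ran in opposite directions on the 2 days, at -0.71 on d12 and 1.09 on d25.

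Cdkn2c and Cdkn2d, coding for the INK4 proteins p18 and p19, moved in opposite directions in both follicular populations. Cdkn2c measured 1147 and 1188 RU in naive CD4 T cells and 1100 and 1250 RU in Treg cells, but 4721 and 6140 RU in TFH cells and 4488 and 4959 RU in TFR cells (chr4:109333508-109333567, minus strand, NCBI37). All 4 follicular arrays were above all 4 progenitor arrays, and the naive and Treg levels were nearly the same. The log2 difference was 2.21 ± 0.11 between TFH and naive cells (4.61-fold, adjusted p = 0.00028) and 2.01 ± 0.11 between TFR and Treg cells (4.02-fold, adjusted p = 0.000737). TFR and TFH cells were not told apart, with a difference of -0.19 and a 95% interval from -0.47 to 0.09, and neither were Treg and naive cells, with 0.01 and an interval from -0.27 to 0.29. Cdkn2d was bright on every array, at 43199 and 38181 RU in naive cells, 33587 and 30524 RU in Treg cells, 17300 and 12885 RU in TFH cells, and 17867 and 12695 RU in TFR cells (chr9:21092934-21092993, minus strand, NCBI37). Here each follicular level was below each progenitor level. Cdkn2d was 2.72-fold lower in TFH than in naive cells (log2 difference -1.44 ± 0.12, adjusted p = 0.0012) and 2.13-fold lower in TFR than in Treg cells (-1.09 ± 0.12, adjusted p = 0.00408). The TFR to TFH difference of 0.01 had an interval from -0.31 to 0.33. Calls for both genes in both follicular comparisons were kept under each of the 20 alternative analyses.

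Cdkn2a, the gene of p16 and Arf, was the only one of the 9 that passed the test as higher in TFR than in TFH cells. It measured 1939 and 1079 RU in TFR cells, 167 RU in Treg cells of either day, 146 and 286 RU in TFH cells, and 119 and 55 RU in naive CD4 T cells, the last not well above background (chr4:88920405-88920464, minus strand, NCBI37). The lower TFR array was thus well above the highest array of any other population. TFR cells were 8.67-fold above Treg cells (log2 difference 3.12 ± 0.53, adjusted p = 0.0111) and 7.08-fold above TFH cells (2.82 ± 0.53, adjusted p = 0.0235). For TFH against naive cells the difference was 1.34 ± 0.53 and did not pass (adjusted p = 0.0939), being 0.30 on d12 and 2.39 on d25, the day with more B cell marker signal in TFH cells. As the mean of its probes this difference was 1.51 and passed (adjusted p = 0.0231), and without the TFH array of d12 it was 2.16. A second probe of the gene gave the same order, with 504 and 252 RU in TFR cells, 62 and 66 RU in TFH cells, and 46 and 24 RU in Treg cells, and its TFR to Treg and TFR to TFH differences were 3.41 and 2.48. The annotation of the array assigns the main probe to both RefSeq transcripts of the gene, which use different reading frames, so p16 and Arf cannot be told apart. The TFR to Treg call was lost on leaving out any of the 4 Treg and TFR arrays, where the difference lay at 2.95 and 3.28 without the Treg arrays of d12 and d25 and at 2.72 and 3.51 without the TFR arrays, with adjusted p between 0.0558 and 0.0889. Likewise, the TFR to TFH call was lost without the TFH array of d12 (2.01, adjusted p = 0.0528), without the Treg arrays of d12 or d25 (2.82 each, adjusted p = 0.0571 and 0.0576) and without the TFR arrays (2.43 and 3.22, adjusted p = 0.163 and 0.0949). Without the filter on dim probes neither passed (adjusted p = 0.0729 for TFR to Treg and 0.126 for TFR to TFH). With slide as a fixed block the TFR to TFH difference was 3.0 (adjusted p = 0.0929), and at d25 TFH and TFR cells lay on different slides. The neighbouring Cdkn2b, which encodes p15 and lies beside Cdkn2a on the chromosome, was at the floor in naive and Treg cells and measured 63 and 288 RU in TFH cells and 249 and 433 RU in TFR cells. Cdkn2b passed for TFH against naive and TFR against Treg cells (adjusted p = 0.0163 and 0.00704) but not for TFR against TFH cells (adjusted p = 0.178). Its probe was well above background on 4 arrays only. The naive and Treg levels at the floor have no spread, so these calls set signal against none and their size depends on the floor. A second Cdkn2b probe, well above background on 2 arrays, measured 20 and 51 RU in TFH cells and 32 and 86 RU in TFR cells. Its differences were smaller, at 0.68 for TFH against naive and 1.4 for TFR against Treg cells, compared with 2.76 and 4.04. Cdkn3, a phosphatase gene of dividing cells that dephosphorylates Cdks, was highest in TFR cells too, at 4506 and 2388 RU, against 1487 and 790 RU in TFH cells.

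Gadd45b showed the largest difference among the genes that were measured in all populations. It reached 28214 and 24500 RU in TFH cells and 10894 and 10701 RU in TFR cells, compared with 4536 and 3182 RU in Treg and 2305 and 1681 RU in naive CD4 T cells (chr10:80394367-80394426, plus strand, NCBI37). No 2 populations overlapped. The order TFH, TFR, Treg, naive held on both days, and each neighbouring pair in it passed the test. TFH cells were 13.4-fold above naive cells (log2 difference 3.74 ± 0.15, adjusted p = 0.000186), TFR cells were 2.84-fold above Treg cells (1.51 ± 0.15, adjusted p = 0.00278) and 2.44-fold below TFH cells (-1.28 ± 0.15, adjusted p = 0.00628). Gadd45a, the p53-inducible family member, measured 2717 and 1428 RU in TFH cells, 923 and 932 RU in TFR cells, 442 and 585 RU in Treg cells, against 421 and 393 RU in naive cells (chr6:66985376-66985435, minus strand, NCBI37). Its follicular levels did not overlap with those of the progenitors either, but the TFH arrays of the 2 days lay far apart. Gadd45a was 4.84-fold higher in TFH than in naive cells (2.28 ± 0.32, adjusted p = 0.00502). The TFR to Treg difference of 0.87 ± 0.32 (adjusted p = 0.0879) and the TFR to TFH difference of -1.09 ± 0.32 (adjusted p = 0.0727) did not pass. With slide as a random block both passed (0.87, adjusted p = 0.0408, and -1.23, adjusted p = 0.031), and the TFR to TFH difference also passed with normexp correction (-1.0, adjusted p = 0.0403) and with a variance trend in limma (adjusted p = 0.0398). Without the TFH array of d25, the one with B cell marker signal, the adjusted p of these was 0.0239 (difference 0.87) and 0.0281 (difference -1.60), and without the TFH array of d12 the first had an adjusted p of 0.0239 as well.

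Gadd45g was the gene of the family that differed most between Treg and naive cells and did not pass the test in either follicular comparison of the main analysis. It measured 6158 and 3783 RU in Treg cells, 5943 and 4073 RU in TFR cells, 2107 and 2603 RU in TFH cells, and 1914 and 752 RU in naive CD4 T cells (chr13:51943733-51943792, plus strand, NCBI37). Both Foxp3-positive populations were above all Foxp3-negative arrays. Gadd45g was 4.02-fold higher in Treg than in naive cells (2.01 ± 0.38, adjusted p = 0.0415), whereas TFR and Treg cells differed by 0.03 with a 95% interval from -0.97 to 1.02. The TFR to TFH difference of 1.07 ± 0.38 did not pass (adjusted p = 0.115). That of TFH to naive cells was 0.96 ± 0.38 (adjusted p = 0.0972), at 0.14 on d12 and 1.79 on d25, and was 1.55 without the TFH array of d12. Of the 9 genes, 3 passed between Treg and naive cells, at a background of 9.87% of all genes tested, namely Gadd45g, Gadd45b (0.95 ± 0.15, adjusted p = 0.0236) and Cdkn1a. Since Cdkn1a was below background in both populations, its call ranks levels without signal and is not read as a difference. With a floor of 50 RU the Cdkn1a value was 0.16 (adjusted p = 0.501). The Gadd45g call was lost in an analysis without day as a term (adjusted p = 0.0756), and without the naive arrays of d12 and d25 the difference was 2.52 and 1.49, without the Treg arrays 1.92 and 2.09, and without either TFR array 2.01, with adjusted p between 0.062 and 0.202. That of Gadd45b was also lost without day as a term (adjusted p = 0.0741), without either naive array (1.05 and 0.84) and without either Treg array (0.81 and 1.09), with adjusted p between 0.0936 and 0.143.

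**Figure D2:**
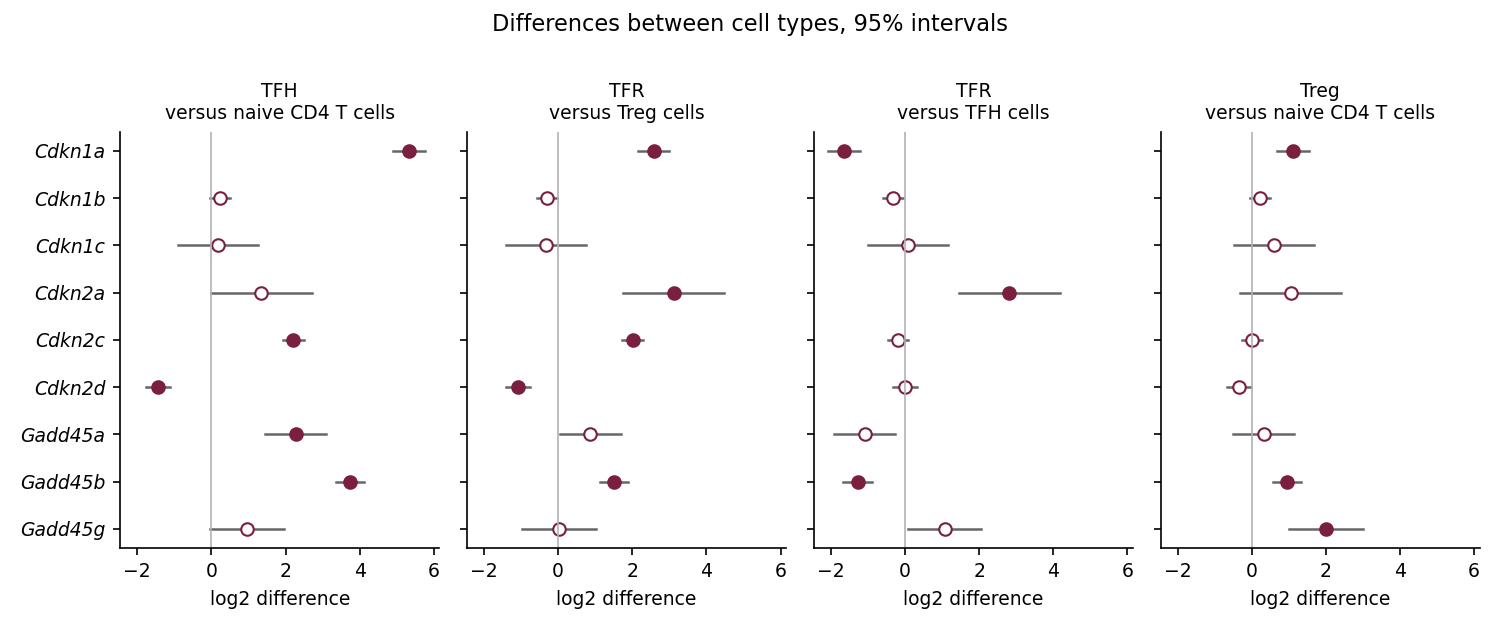
Log2 differences of the 9 genes in 4 comparisons, with 95% intervals from the fit and filled symbols where the adjusted p was below 0.05. In the panels of TFH versus naive and TFR versus Treg cells Cdkn2c lies at 2.21 and 2.01 and Cdkn2d at -1.44 and -1.09, and Cdkn2a stands alone to the right in the TFR versus TFH panel at 2.82. The symbols of Cdkn1a rest on naive and Treg levels that were not well above background.

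Between TFR and TFH cells directly, 3 of the 9 genes passed, at a background of 22.1% of all genes tested, 11.7% as higher and 10.5% as lower. Cdkn2a was higher and Cdkn1a and Gadd45b were lower in TFR cells. The difference of the 2 follicular changes, TFR minus Treg set against TFH minus naive, passed for 2 of the 9 genes, at a background of 8.49%. For Gadd45b the change was smaller with Foxp3 by -2.23 ± 0.21 on the log2 scale (adjusted p = 0.00892), at -2.35 on d12 and -2.12 on d25, and without the Treg array of d12 it was -2.09 with an adjusted p of 0.0512. For Cdkn1a it was -2.75 ± 0.23 (adjusted p = 0.00699), a value that uses the naive and Treg levels below background and that lost its call without the TFR array of d12 (-2.77, adjusted p = 0.0562) or of d25 (-2.74, adjusted p = 0.0531). Averaging the Cdkn1a probes gave -0.50 (adjusted p = 0.366). For Cdkn2a the difference of the changes was 1.77 ± 0.75 with a 95% interval from -0.16 to 3.70. The change was thus not shown to differ in the main analysis, although it passed in TFR cells alone. With normexp correction the Cdkn2a difference was 1.75 ± 0.40 and passed (adjusted p = 0.0464). Cdkn2c and Cdkn2d had differences of -0.20 (interval from -0.59 to 0.20) and 0.36 (interval from -0.10 to 0.81). Gadd45a, at -1.41 ± 0.45, did not pass (adjusted p = 0.14), but reached an adjusted p of 0.0437 without the TFH array of d25 (-1.93).

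**Figure D3:**
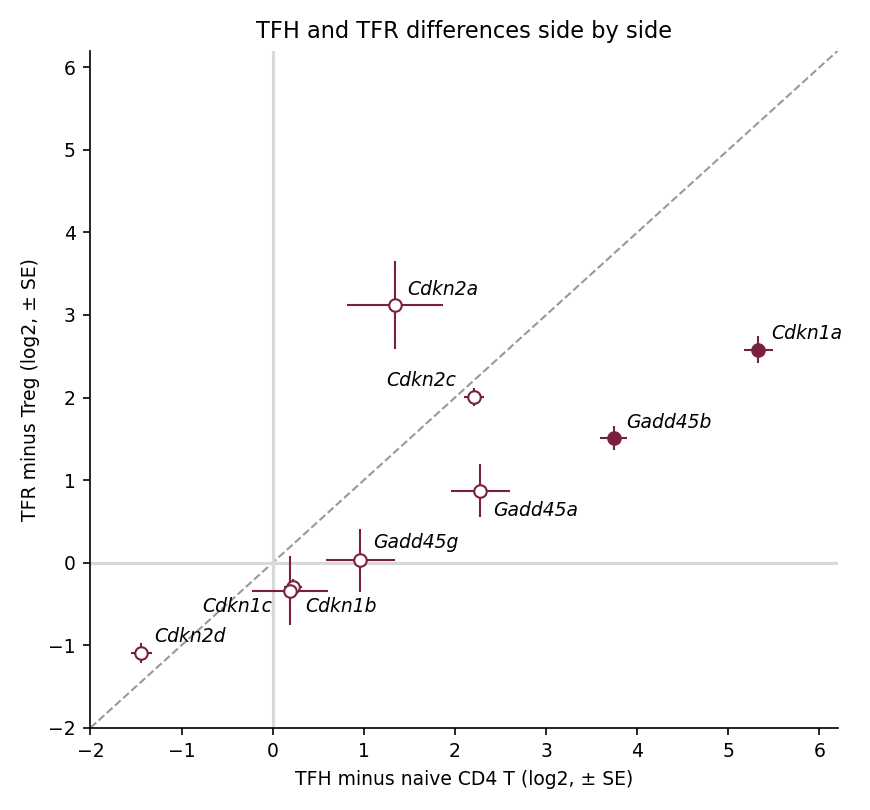
The TFR minus Treg difference of each gene plotted against its TFH minus naive difference (both log2, bars are SE), with a dashed line where they are equal and filled symbols where the difference of the 2 passed the test. Cdkn1a and Gadd45b lie below the line at 2.58 against 5.33 and 1.51 against 3.74, Cdkn2c and Cdkn2d lie close to it, and Cdkn2a lies furthest above it with 3.12 against 1.34.

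The cyclins and kinases that the inhibitors act on were counted by phase of the cycle. Over all genes tested, 46.6% passed for TFH versus naive and 39.7% for TFR versus Treg cells. Of 8 G1 cyclin and kinase genes, 6 were tested, and in TFH against naive cells Ccne1 was higher and 4 were lower, Ccnd2 (-0.90), Ccnd3 (-0.74), Cdk2 (-0.39) and Cdk4 (-0.27), with a median of -0.33. In TFR against Treg cells, 2 of the 6 were higher (Ccne1 and Cdk4) and 1 was lower (Ccnd3), with a median of 0.06. The cyclin D genes, which partner with Cdk4 and Cdk6, were bright except for Ccnd1, which lay between 20 and 196 RU, and Cdk6 lay between 20 and 32 RU and was not tested. Ccne1, the cyclin of Cdk2, measured 7826 and 5047 RU in TFH, 6735 and 3880 RU in TFR, 1905 and 1958 RU in Treg, and 2490 and 1963 RU in naive cells. Its differences were 1.51 ± 0.22 in TFH and 1.40 ± 0.22 in TFR cells, with an adjusted p of 0.00542 and 0.00877. Cdk4 was lower in TFH (-0.27 ± 0.08, adjusted p = 0.0438) but higher in TFR cells (0.31 ± 0.08, adjusted p = 0.0345), and the 2 changes differed by 0.59 (adjusted p = 0.0459). All 5 genes of S, G2 and M phase (Ccna2, Ccnb1, Ccnb2, Ccnf and Cdk1) were higher in both follicular populations, with a median difference of 2.63 and 2.80, and 4 of them were also higher in TFR than in TFH cells. Cdk1 was well above background on 4 arrays only, with 20 RU on both naive arrays and 26 and 43 RU in Treg cells. The size of its differences thus depends on the floor. Ccnb2, a mitotic cyclin, measured 623 and 342 RU in naive, 5774 and 3053 RU in TFH, 1673 and 1168 RU in Treg, and 13813 and 7717 RU in TFR cells. Mki67, which marks cycling cells, measured 475 and 352 RU in naive, 3620 and 2370 RU in TFH, 882 and 942 RU in Treg, and 6708 and 6574 RU in TFR cells. Of 11 pocket protein and E2F genes, 4 were higher in TFH and 3 in TFR cells against their progenitors, and the repressor E2f8 differed most, by 3.27 and 3.13. The 1 gene of this list that was lower in TFR cells was Rb1, the retinoblastoma gene, named here after its values were seen. Rb1 measured 4073 and 4797 RU in naive, 8219 and 13059 RU in TFH, 6921 and 8079 RU in Treg, and 4780 and 5617 RU in TFR cells. It was higher by 1.23 ± 0.14 in TFH cells (adjusted p = 0.00288) and lower by -0.53 ± 0.14 in TFR cells (adjusted p = 0.0406), and these changes differed by -1.76 (adjusted p = 0.0139). In these sorted bulk samples a larger share of dividing cells and more RNA per cell cannot be told apart, and high cell cycle transcripts and high inhibitor transcripts need not come from the same cells.

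**Figure D4:**
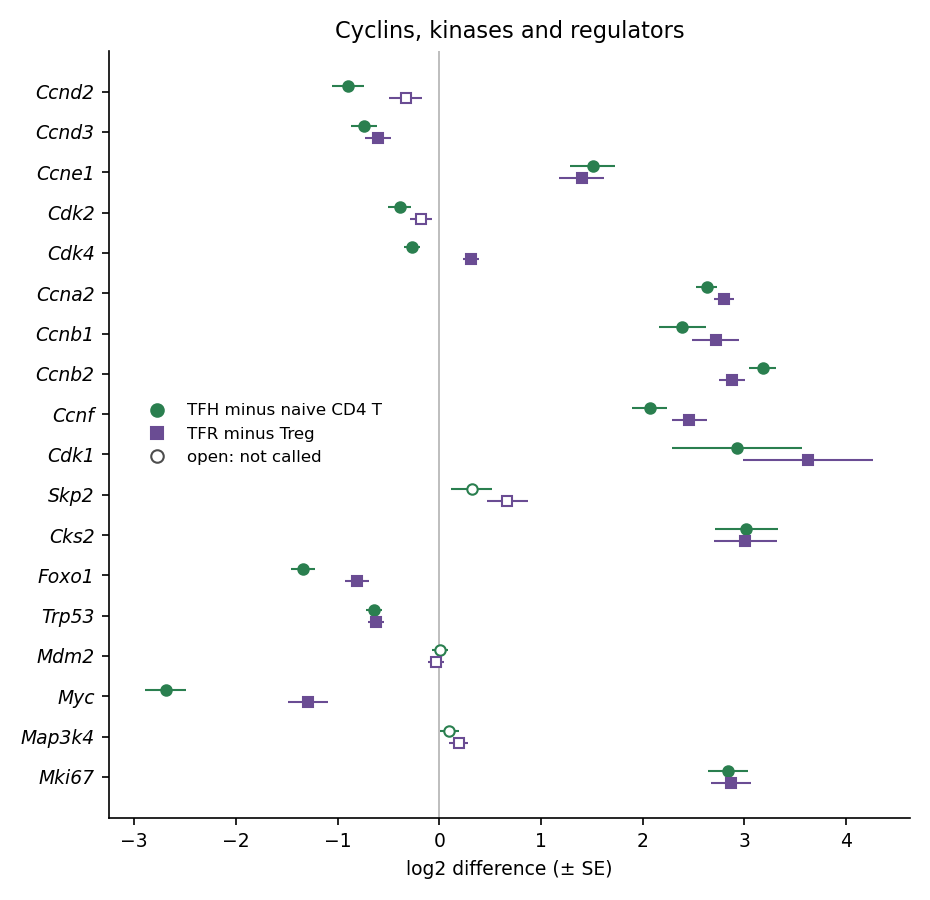
Log2 differences (± SE) of cyclins, kinases, regulators and Mki67 in TFH minus naive CD4 T cells (circles) and TFR minus Treg cells (squares), with open symbols where the adjusted p was not below 0.05. The S, G2 and M phase genes from Ccna2 to Cdk1 lie to the right of 2 in both, Ccnd3, Foxo1, Trp53 and Myc lie to the left of 0 in both, and the symbols of Mdm2 and Map3k4 are open and near 0. The Cdk1 circle rests on naive levels at the floor.

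Regulators of the inhibitors were counted next, beside the same shares of 46.6% and 39.7% of all genes tested. Skp2, which targets p27 for degradation, did not pass in TFH (0.32) or TFR cells (0.67, adjusted p = 0.054), but its cofactor Cks1b was higher by 1.28 ± 0.12 and 2.09 ± 0.12 (adjusted p = 0.00143 and 0.000802), a gene named after its values were seen. The related Cks2 had the largest difference of the list, 3.02 ± 0.31 and 3.01 ± 0.31 (adjusted p = 0.002 and 0.00322). Foxo1, a factor known to drive Cdkn1b transcription, was lower in both, at 45751 and 48070 RU in naive, 20554 and 16714 RU in TFH, 46273 and 38791 RU in Treg, and 25632 and 22708 RU in TFR cells. Of the 12 genes of p27 turnover and transcription, 2 were higher and 3 were lower in each follicular comparison. Trp53, coding for p53, was lower by -0.64 ± 0.08 in TFH and -0.62 ± 0.08 in TFR cells, with an adjusted p of 0.00372 and 0.00567, and Mdm2, both its inhibitor and its target, did not pass, with 0.01 and -0.03. Of 20 p53 target genes other than Cdkn1a and Gadd45a, 17 were tested. Of these, 10 were higher and 2 lower in TFH cells (median 0.47 against -0.07 over all genes tested), and 6 were higher and 1 lower in TFR cells (median 0.30 against -0.08). Perp, an adhesion gene induced by p53, was at the floor of 20 RU in naive cells and reached 466 and 365 RU in TFH and 445 and 601 RU in TFR cells.

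Myc, which is known to repress Cdkn1a, Cdkn2b and Gadd45a, was lower in both follicular populations. It measured 8505 and 9137 RU in naive and 1662 and 1117 RU in TFH cells (difference -2.69 ± 0.20, adjusted p = 0.000782). The TFR arrays held 5987 and 5072 RU and the Treg arrays 12885 and 14170 RU (difference -1.29 ± 0.20, adjusted p = 0.00879). Of 8 genes tested among Myc, Miz1 and Gfi1 type regulators, 4 were higher and 1 lower in TFH cells, and 1 was higher and 1 lower in TFR cells. Over all genes tested, 20.9% were higher and 25.7% lower in TFH cells, and 18.7% higher and 21% lower in TFR cells. The gene of the list that was highest over Treg cells was Klf4, an activator of Cdkn1a, with 378 and 410 RU in TFR, 50 and 86 RU in Treg, 228 and 226 RU in TFH, and 109 and 144 RU in naive cells, and its change was larger in TFR cells by 1.72 (adjusted p = 0.0358). Among 14 tested partners and downstream kinases of the Gadd45 proteins, 4 were higher and 3 lower in TFH cells, and 3 higher and 1 lower in TFR cells. In either direction, 46.6% of all genes tested passed in TFH and 39.7% in TFR cells. Map3k4, the kinase that Gadd45 proteins activate, did not pass (0.10 and 0.19) and lay between 5209 and 6486 RU on all arrays. Further down the pathway, Map2k3, an activator of p38, was higher by 1.35 ± 0.18 in TFH and 1.43 ± 0.18 in TFR cells, with an adjusted p of 0.00449 and 0.00534, and the p38 gene Mapk12 was higher in TFH cells (2.82 ± 0.43, adjusted p = 0.00635). Mapk12 did not pass in TFR cells (0.68, adjusted p = 0.262), and neither did the difference of the 2 changes (adjusted p = 0.11). Other p38 genes, named after their values were seen, did not rise. Mapk11 was lower in TFH (-0.79, adjusted p = 0.00232) and TFR cells (-0.61, adjusted p = 0.00691), and Mapk14 did not pass (0.10 and -0.24). The p38 activator Map2k6 was lower in TFH cells (-0.72, adjusted p = 0.0333) and did not pass in TFR cells (-0.3).

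For the genes with the largest and the smallest TFH to naive difference among those measured on all arrays, the most similar profiles over the 8 arrays are given as a description. The profile of Gadd45b was closest to those of Cyb5r3, Ctsz, Coro2b, Marcksl1 and Cxcr5, with Pearson r between 0.9919 and 0.9935 among 13283 genes. Cxcr5, the chemokine receptor that guides T cells into follicles, shared its order of TFH, TFR, Treg and naive cells, with differences of 7.16 in TFH and 3.30 in TFR cells. Profiles most like that of Cdkn2d were those of Defa-rs10, Il27, Pcif1, Rbfa and Wdr46, with r between 0.9912 and 0.9937. Rbfa and Wdr46, which act in ribosome assembly, were lower by -1.02 and -0.87 in TFH cells. With 4 cell types on 8 arrays, such values mostly follow the 4 group means, and many genes share an order.

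Between d25 and d12, none of the 9 genes passed the test in limma over all 4 cell types, at a background of 0.0698% of all genes tested, and 3 had an unadjusted p below 0.05. These were Cdkn2d (-0.31 ± 0.09), Cdkn1a (-0.39 ± 0.12) and Gadd45b (-0.30 ± 0.10), all lower at d25, with adjusted p between 0.116 and 0.15. Day and slide cannot be told apart, since the 4 arrays of d12 shared 1 slide and those of d25 lay on 2 others, naive with TFH cells and Treg with TFR cells. The largest changes within a cell type were those of Cdkn2a, Cdkn1c and Gadd45a in TFH cells and of Gadd45g and Cdkn2a in naive cells. Each of these rests on 1 array per day.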

How the data were processed

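Scanner files of 8 one-color arrays (39429 probes in 4 spots each) were used. The authors extracted them with Agilent Feature Extraction 10.7.3.1, and deposited background-corrected intensities of spots beside normalized intensities of probes. From the spots, flagged spots, spots far from the interquartile range of their probe and spots with a pixel coefficient of variation above 0.5 were excluded, and the rest were averaged geometrically, quantile normalized, scaled to a 75th percentile of 1500 and floored at 20. The log2 values correlated with those of the authors' table at r = 0.9994 on each array. The brightest probe stood for a gene, and 15763 genes well above background (over 50% of retained spots) on both arrays of a cell type were tested. limma 3.58.1 in R 4.3.3 fitted cell type and day as additive terms on all 8 arrays (lmFit, eBayes, 3 residual degrees of freedom, prior 1.9). This took the place of the study's analysis of variance, as no cell type had a second array on the same day. Day is the replicate number and also the shared slide at d12. The study's text states 3 experiments for d12 and 2 for d25, of which 1 array per cell type and day was analysed here. Intervals are 95%. Array number limits the precision. Members and gene lists were chosen with earlier results of these data known. Cdk and p53 related lists were counted by direction, and from each the gene with the largest called difference was named, besides a fixed set of cell cycle genes. In simulated data for TFH versus naive cells (15747 genes, 200 changed), the fit called 52% of log2 changes of 1 and 81% of changes of 2, with 15 false calls. The simulation drew independent noise without day or slide effects and changed far fewer genes than the 46.6% called in the data. Its rates therefore check the fit and do not give those of the real comparison. Probe positions are in NCBI37 as in the files, and promoters are from a RefSeq table of GRCm38.p6. Alternatives were another normalization, background correction, the authors' table, spot and dim probe filters, mean of probes, another floor, moderated variance with trend, no day term, slide as a block and leaving out each array.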

Additional observations from a re-analysis of the deposited data

Results flagged for a closer look

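The difference between the follicular change with Foxp3 (TFR minus Treg) and without it (TFH minus naive CD4 T) passed the test for 2 of the 9 genes, at a background of 8.49% of all genes tested, Cdkn1a at -2.75 (adjusted p = 0.00699) and Gadd45b at -2.23 (adjusted p = 0.00892), both on the log2 scale and in limma. The direction was the same on both days for each. The Cdkn1a value rests on naive and Treg levels that were not well above background, fell short of the threshold without either TFR array (adjusted p = 0.0562 and 0.0531), and was -0.50 (adjusted p = 0.366) as the mean of its probes. Without the filter on dim probes neither passed (adjusted p = 0.0573 and 0.0604). Among the other genes named here or leading a marker list, it passed for Cdk4 (0.59, adjusted p = 0.0459), Rb1 (-1.76, adjusted p = 0.0139), Klf4 (1.72, adjusted p = 0.0358), Cxcr5 (-3.85, adjusted p = 0.00696), Pdcd1 (-2.52, adjusted p = 0.00753), which the sort used as PD1, and Mef2b (-3.32, adjusted p = 0.00676). Mef2b, listed as a germinal center B cell marker, measured 7881 and 7870 RU in TFH cells of the 2 days and 487 and 474 RU in TFR cells.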

How the results depend on the processing

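Of 18 differences called among the 9 genes, 10 kept their call and direction under each alternative that gave a value, and no called difference changed sign. They include Cdkn2c, Cdkn2d, Gadd45b and Cdkn1a in both follicular comparisons. The Cdkn1a calls set signal against naive and Treg levels that were not well above background. Leaving out 1 array changed the number of genes called to 5 to 7 for TFH versus naive, 4 to 6 for TFR versus Treg, 1 to 4 for TFR versus TFH, 0 to 3 for Treg versus naive, 1 to 3 for the difference of the changes and 0 for the days. The share of all genes called then ranged from 27.4% to 40.7%, 15.7% to 41.7%, 6.13% to 18.1%, 2.67% to 10.9% and 1.87% to 6.65%, and was 0% for the days, against 46.6%, 39.7%, 22.1%, 9.87%, 8.49% and 0.0698% with all arrays. For Treg versus naive cells, 3 of the 9 genes were called in the main analysis, Cdkn1a below background among them. None was called without the replicate block of day, with slide as a fixed block or without the filter on dim probes. In each of these, 3 genes had an unadjusted p below 0.05, and 6.37%, 3.36% and 2.3% of all genes were called. The calls in the other comparisons without the replicate block numbered 5, 5, 3 and 2, as with it, while the shares of all genes called were 35%, 27%, 14% and 5.18%. Without the dim probe filter, no difference of the changes was called (3 at an unadjusted p below 0.05), at a share of 1.41% of all genes. Restricting to genes well above background on all arrays left 7 genes, with 3 called for TFR versus Treg, 1 for TFR versus TFH and 1 for the difference of the changes, since Cdkn1a and Cdkn2a were not tested. The shares of all genes called were 42%, 22.5% and 8.6% there. The mean of all probes gave 1 call for the difference of the changes, with 7.53% of all genes called. Moderated variance with trend gave 5 for TFR versus TFH, with 27.1% of all genes called. The cause was not tested where none is named. Slide as a block leaves no day term, so the comparison of days has no value there.

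With normexp correction the Cdkn1a differences were 2.64 (TFH versus naive) and 1.22 (TFR versus Treg). Signs turned only for differences that were not called in either analysis. On leaving out 1 array at a time, these ranged for Cdkn1c from -0.43 to 0.81 in TFH versus naive, from -0.50 to 0.66 in TFR versus TFH, from -0.02 to 1.22 in Treg versus naive, from -1.14 to 0.10 in the difference of the changes and from -0.19 to 0.41 between days. They ranged for Cdkn2c in Treg versus naive from -0.09 to 0.10, for Cdkn2d in TFR versus TFH from -0.11 to 0.14, for Gadd45g in TFR versus Treg from -0.06 to 0.11, for Gadd45a from -0.05 to 0.69 in Treg versus naive and from -0.34 to 0.11 between days, and for Cdkn2a between days from -0.66 to 0.04. Other turns were those of Cdkn1b between days without quantile normalization (-0.03), Gadd45a in Treg versus naive with slide as a fixed block (-0.04), and, with no spot excluded, Cdkn2d in TFR versus TFH (-0.02) and Cdkn2c in Treg versus naive (-0.01).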
